A study of Homo sapiens with 10 samples.

Results

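Open chromatin was examined around 40 genes of the cell cycle and DNA replication, out of 19974 protein-coding genes in the gene table, in DLD-1 cells with and without removal of the transcription factor GATA6. The 40 genes were taken as a given list, and a region of open chromatin belonged to a gene when it lay in the gene body or within 20 kb of either end. Peaks of the individual libraries were merged into regions. By this rule the genes held 257 of 120452 regions in the GATA6 degron line, 316 of 157584 regions in the knockout and unedited cells, and 313 of 168719 regions when all 10 libraries were merged.

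Progress through the cell cycle is driven by cyclin-dependent kinases, each switched on by a cyclin partner. The D cyclins with CDK4 and CDK6 begin phosphorylation of the retinoblastoma protein (RB1), which frees the E2F factors to switch on genes for DNA synthesis. The E and A cyclins with CDK2 then drive replication from origins licensed by ORC1, CDC6, CDT1 and the MCM helicase, and the B cyclins with CDK1 drive mitosis. Inhibitors such as the products of CDKN1A and CDKN2A hold these kinases back, and CCND1 is a known target of WNT signalling in the intestinal epithelium.

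DLD-1 is an established line from a human colorectal adenocarcinoma. AID_wash, AID_aux and AID_ctrl came from a DLD-1 line of genotype GATA6-AID-IAA7, in which GATA6 carries a degron, a tag that leads to destruction of the protein when auxin is present. AID_aux had 12 h of auxin, AID_wash had auxin removed again and carries the time label 1 with no unit, and AID_ctrl is labelled as auxin at 0 h with the title word ctrl and was read as untreated. The labels' protocol gives 500 µM IAA for the auxin and speaks of positive GATA6-IAA7 clones without saying which clone or clones were used. KO denotes DLD-1 cells with a CRISPR/Cas9 knockout of GATA6, and WT denotes unedited DLD-1 cells. Every group had 2 libraries made from 50000 cells by ATAC-seq, an assay that uses a transposase to tag accessible DNA. Nothing in the labels ties the replicates to separate cultures, and the spread between them may be technical.

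The deposited lists held 154537 and 180018 peaks for AID_wash replicates 1 and 2, 199036 and 173618 for AID_aux, 191535 and 179405 for AID_ctrl, 130807 and 116626 for KO, and 93104 and 66078 for WT. Read counts are not part of these lists, so depth is unknown. The KO and WT lists hold 500 bp windows and the degron lists hold intervals of 150 to 3765 bp, so the degron line and the knockout were compared only within their own set. All regions together gave the background share for every comparison. At the starts of 8 colorectal epithelium markers, 7 had a peak in every degron library and 5 in every KO and WT library, with LGALS4 in the first set and CDX1, LGALS4 and VIL1 in the second called in some. Among markers of blood, fibroblast, endothelium and muscle, CD3E and COL1A1 had a start peak in all 10 libraries, CDH5, PECAM1 and PTPRC in some, and COL3A1 and MYOD1 in none. Around GATA6 itself, 11 and 13 of 21 regions were called in AID_wash, 13 and 12 in AID_aux, and 14 and 15 in AID_ctrl. KO called 14 and 13 of 18 regions there and WT called 10 and 8. These peaks are no check of the degron or of the knockout.

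The promoters of the members at either end of the enrichment scale are shown first, so that the letters read by known cell cycle factors can be set beside the peak heights. Each is the run of 250 bases before the gene start in RefSeq (GRCh38.p14), written 5′ to 3′ along the gene. They lie at chr10:60778081-60778330 on the plus strand for CDK1, chr6:52284743-52284992 on the minus strand for MCM3, chr5:69166900-69167149 on the plus strand for CCNB1, chr16:88803539-88803788 on the plus strand for CDT1, and chr12:12717118-12717367 on the plus strand for CDKN1B. Capitals mark matches on either strand to the letters searched. For E2F these were the runs TTTGGCG or else TTTCCCG or else TTTGCCG or else TTTCGCG, and for the cell cycle homology region (CHR) TTTGAA. For NF-Y the run was CCAAT, for SP1 it was GGGCGG, and for GATA factors it was AGATAA or else TGATAA. CDK1, MCM3 and CCNB1 had the highest start enrichment, and CDT1 and CDKN1B the lowest together with CCND1.
CDK1: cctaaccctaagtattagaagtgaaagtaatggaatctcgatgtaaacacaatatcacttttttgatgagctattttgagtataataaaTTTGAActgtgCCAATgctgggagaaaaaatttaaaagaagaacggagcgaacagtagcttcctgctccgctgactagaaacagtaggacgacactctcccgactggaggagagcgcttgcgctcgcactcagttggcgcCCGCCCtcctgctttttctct
MCM3: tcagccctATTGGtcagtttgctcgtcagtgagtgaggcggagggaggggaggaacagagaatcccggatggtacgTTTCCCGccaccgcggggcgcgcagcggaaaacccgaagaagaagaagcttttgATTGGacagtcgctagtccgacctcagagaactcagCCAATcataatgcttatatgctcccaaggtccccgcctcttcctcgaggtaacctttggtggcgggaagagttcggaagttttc
CCNB1: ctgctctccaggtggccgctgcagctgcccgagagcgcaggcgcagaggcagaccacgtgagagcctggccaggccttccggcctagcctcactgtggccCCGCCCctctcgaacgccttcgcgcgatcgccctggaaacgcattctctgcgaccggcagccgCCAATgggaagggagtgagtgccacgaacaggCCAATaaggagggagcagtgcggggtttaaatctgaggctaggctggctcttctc
CDT1: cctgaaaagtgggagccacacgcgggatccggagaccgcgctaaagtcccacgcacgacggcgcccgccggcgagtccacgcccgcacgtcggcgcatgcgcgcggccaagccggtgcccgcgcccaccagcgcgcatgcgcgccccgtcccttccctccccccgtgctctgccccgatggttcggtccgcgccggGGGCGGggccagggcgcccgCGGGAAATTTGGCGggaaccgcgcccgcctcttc
CDKN1B: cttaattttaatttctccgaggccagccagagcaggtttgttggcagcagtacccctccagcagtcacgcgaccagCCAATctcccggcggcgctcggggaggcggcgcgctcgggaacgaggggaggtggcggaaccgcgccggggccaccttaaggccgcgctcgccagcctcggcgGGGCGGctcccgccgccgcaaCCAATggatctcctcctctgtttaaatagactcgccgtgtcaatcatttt

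CDK1 carried a CHR match 161 to 156 bases before the start and a CCAAT match ending 146 bases before it, and CCNB1 carried CCAAT matches ending 83 and 51 bases before its start. MCM3 held 3 matches to CCAAT, counting both strands, and 1 to the E2F letters. CDT1 held no CCAAT match and 2 adjoining E2F matches, read on opposite strands, 34 to 21 bases before its start. An E2F match and an SP1 match can share bases, and each was counted. None of the 5 promoters held the GATA letters. Over the members with a promoter entry, 32 of 40, the CCAAT letters were present in 23 (71.9%), against 40.2% of 15813 genes. The SP1 letters were present in 28 members (87.5%), against 62.1% of all genes, and the E2F letters in 13 (40.6%), against 11.5%. The CHR letters were present in 7 members, CCNB2, CDC20, CDK1, E2F3, MKI67, PLK1 and TOP2A (21.9%), against 14.2% of all genes. All of these but E2F3 are genes known for roles in G2 or mitosis, whereas CCNB1, AURKB and BUB1, also genes of mitosis, held no CHR match. The GATA letters were present in 1 member, RB1 (3.12%), against 14.3% of all genes, at the internal RB1 start that the promoter table lists, where no library called a peak. A match describes letters in these windows and shows no binding. Members with a second listed start were searched at each start, so that CDK1 counts as holding E2F letters through its second start. Members without an entry, AURKA, CCND1, CCND2, CCNE2, CDK2, FOXM1, MCM4 and MCM5, had both ends of the gene body read as possible starts in what follows.

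The starts of these genes were open in nearly every library. In the degron line 39 of 40 members (97.5%) had a peak within 1000 bp of a start in all 6 libraries, against 63.9% of all protein-coding genes. In KO and WT cells 38 of 40 (95%) had one in all 4 libraries, against 60.4% of all protein-coding genes. CCND2 had no start peak in any of the 10 libraries, and CDT1 lacked one in WT replicate 2. A second list of 80 cell cycle genes, such as those of the GINS complex and the kinetochore, had a start peak in all 10 libraries for 79, with RPA3 the exception.

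The height of these start peaks differed widely between genes and little between the libraries of one gene. Height was read as the authors' fold enrichment of the highest summit within 1000 bp of a start, a value relative to the background of its own list, which shows no change between lists. For members without a strand, the higher of both body ends was taken in each library, and it may be the end of the gene. The end taken differed between libraries for CDK2 and CCNE2. Over the 39 members with a start peak the median was 10.6-fold, from 4.37-fold to 15.3-fold, and the median over 12588 protein-coding genes with a start summit in all 6 lists was 9.81-fold. Of the 39 members, 23 lay above that median. The highest of a gene's 6 libraries exceeded its lowest by a ratio of 1.06 (MCM5) to 1.52 (CDKN1B). Among 32 members with a strand and a start peak, the median summit lay upstream of the nearest start in 28 and within 150 bp of it in 25. The same count was not made over all protein-coding genes, so it is not read as particular to the members. Where the nearest start differed between libraries, as at CDK1 and CCND3, the median mixes distances to different starts.

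CDK1, the mitotic kinase, had the highest start enrichment. Its summit was enriched 14.6- and 14.1-fold in AID_wash, 15.9- and 16.6-fold in AID_aux, and 15.4- and 15.2-fold in AID_ctrl. The AID_aux values were the highest and the AID_wash values the lowest, without overlap of the groups. How many other gene starts show such an order was not counted, and fold values of different lists show no change. Its median of 15.3-fold was above the medians of 96.2% of the genes compared. CCNB1, which encodes its partner cyclin B1, had 16.6- and 13.8-fold in AID_wash, 17.0- and 14.9-fold in AID_aux, and 14.6- and 13.1-fold in AID_ctrl. The AID_wash values overlapped those of both other groups. Both AID_aux values lay above both AID_ctrl values, an order that was likewise not counted over all gene starts. CCNB2 had a median of 14.2-fold, so that the B cyclins and CDK1 formed the role with the highest median, 14.8-fold. Only 10 regions surrounded these 3 genes in the degron line, and 6 of them were called in every library.

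MCM3, a subunit of the replicative helicase, had 13.3- and 16.4-fold in AID_wash, 16.0- and 15.1-fold in AID_aux, and 14.7- and 13.6-fold in AID_ctrl. Its AID_wash libraries spanned the whole range of the other 4. Both AID_aux values lay above both AID_ctrl values, as at CDK1 and CCNB1. This order was not counted over all gene starts, and fold values of different lists show no change. The 10 licensing and replication genes had a median of 11.8-fold and 59 degron regions, of which 38 were called in every library. PCNA, the sliding clamp of DNA polymerase, had an internal start that was higher than its outermost start. At chr20:5119958 its enrichment was 13.5- and 11.9-fold in AID_wash, 13.5- and 13.1-fold in AID_aux, and 12.7- and 13.4-fold in AID_ctrl. At chr20:5126622 it was 9.61- and 9.18-fold in AID_wash, 11.4- and 9.61-fold in AID_aux, and 9.19- and 9.61-fold in AID_ctrl. The inner start was thus the higher one in each of the 6 libraries. All 4 regions around PCNA were called in all 10 libraries, the only member for which this held.

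CDT1, the licensing factor that loads the MCM helicase, stood apart from the other replication genes. Its highest summit was enriched 3.53- and 4.61-fold in AID_wash, 4.49- and 5.05-fold in AID_aux, and 4.40- and 5.32-fold in AID_ctrl, and lay 872 to 911 bp inside the gene in these 6 libraries. The 3 groups overlapped. The region over the start itself (chr16:88803348-88804049) was called in 1 of 2 AID_wash libraries, both AID_aux and both AID_ctrl libraries, both KO libraries and 1 of 2 WT libraries. The region that holds the summit (chr16:88804367-88805056) was called in every library but WT replicate 2, the shortest of the 10 lists.

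The D cyclins and their kinases had the lowest start enrichment of any role by fold, with a median of 6.11-fold over the 4 genes with a start peak. That order holds by fold alone. By the peak caller's −log10 p the median of their ranks was the top 9.43% of a list, and the inhibitors (9.64%), FOXM1, MKI67 and TOP2A (9.74%) and the CDC25 phosphatases (13.3%) ranked lower. CCND1, which encodes cyclin D1, had 5.63- and 4.44-fold in AID_wash, 4.76- and 5.19-fold in AID_aux, and 4.18- and 5.09-fold in AID_ctrl. The 3 groups overlapped. These summits lay at the higher-numbered end of the gene body (chr11:69654474). Without a strand, that end may be the end of the gene and not its start. At the lower-numbered end (chr11:69641156) the values were 2.44- and 3.60-fold in AID_wash, 2.86- and 2.90-fold in AID_aux, and 3.06- and 3.88-fold in AID_ctrl, lower than at the other end in each library. Both ends were called in all 10 libraries. At the higher-numbered end the CCND1 summit ranked in the top 9.71% of its list by −log10 p (median over libraries). By fold it ranked in the top 56.1%. The place of CCND1 thus depends on which value and which end is read. CDK4 and CDK6 had medians of 5.62- and 6.60-fold, and CCND3 had 9.31-fold.

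CCND2, which encodes cyclin D2, was the one member without an open start. Neither end of its body had a peak within 1000 bp in any of the 10 libraries. Yet 4 of its 9 regions were called in all 10 libraries, 2 inside the gene (chr12:4276681-4277376 and chr12:4278568-4279601), 1 beyond its higher-numbered end (chr12:4307670-4309117) and 1 at the start of another gene (chr12:4320414-4321865). With the distance widened to 3000 bp, all 40 members, CCND2 included, had a start peak in every degron library.

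CDK6 lies in a gene body of 232 kb and held more regions than any other member, 40 over the 10 libraries, of which 12 were called in all of them. CCND3 held 16 and CDC25B 15, against 2 for CDK1. The plot of regions per gene shows this spread by role.

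Among the inhibitors, the CDKN2A locus was open at one of its starts and not at the other. This locus encodes 2 tumour suppressors from separate starts, p14ARF from the outer one and p16INK4a from the inner one. At the outer start (chr9:21995324) the enrichment was 12.1- and 12.2-fold in AID_wash, 12.1- and 13.7-fold in AID_aux, and 12.2- and 12.9-fold in AID_ctrl, and KO and WT called it in all 4 libraries. At the inner start (chr9:21974857) no library of the 10 called a peak. CDKN2B, the neighbouring inhibitor gene, had a median of 13.8-fold. CDKN1B, which encodes p27, had the lowest median of all members with a peak, with CCND1 read at its higher-numbered end. The lower-numbered end of CCND1 lay below CDKN1B in each library. CDKN1B had 3.36- and 4.64-fold in AID_wash, 4.71- and 3.26-fold in AID_aux, and 4.09- and 4.94-fold in AID_ctrl. The spread between the replicates of AID_wash and of AID_aux covered nearly the whole range. CDKN1A, which encodes p21, had a median of 6.17-fold at chr6:36678714 and no peak in any library at its outermost start (chr6:36676463). A start without a peak in any of the 10 libraries, beside an open one, was also found at RB1 (chr13:48476450), ORC1 (chr1:52409503) and CCND3 (chr6:41939205).

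The remaining roles lay between these. The E and A cyclins with CDK2 had a median of 10.4-fold, the mitotic kinases and checkpoint genes (AURKA, AURKB, PLK1, BUB1 and CDC20) 10.6-fold, RB1 with the E2F genes 9.95-fold, the CDC25 phosphatases 10.1-fold, and FOXM1, MKI67 and TOP2A 9.96-fold. TOP2A, which encodes the topoisomerase of chromosome condensation, was the highest of the last group at 13-fold, and MKI67, the source of the Ki-67 marker, the lowest at 7.73-fold. The plot of start enrichment gives every library of every gene. Over 23 members with CCAAT letters the median start enrichment was 10.9-fold, and over 9 members without them 7.03-fold. With and without the E2F letters it was 9.30- and 10.9-fold (n = 13 and 19), with and without the SP1 letters 10.8-fold in both (n = 28 and 4), and with and without the CHR letters 10.9- and 10.6-fold (n = 7 and 25). RB1 was counted by the letters at its internal start, although its peak of 12.1-fold lies at another start whose promoter was not searched. PCNA held E2F letters only at chr20:5126622, its lower start. CDC25B held no E2F or CCAAT letters at chr20:3786951, the start of its highest summit except in AID_ctrl replicate 1. The highest CCND3 summit lay in both AID_aux libraries and AID_ctrl replicate 1 at chr6:42050035, which was not searched.

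**Figure D1:**
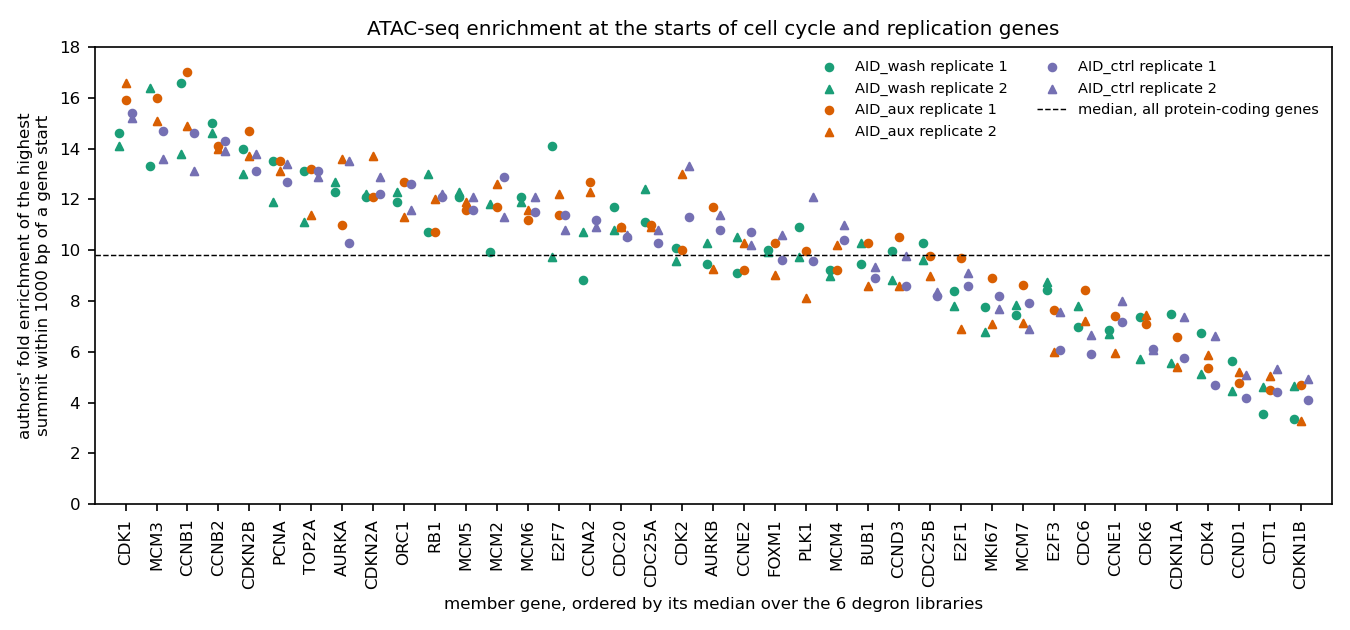
The vertical axis gives the authors' fold enrichment of the highest summit within 1000 bp of a gene start, and the horizontal axis gives the 39 members with a start peak in order of their median over 6 libraries. Circles are replicate 1, triangles replicate 2, colours the groups, and the dashed line the median of all protein-coding genes (9.81). Members without a strand are plotted at the higher of both body ends. The gradient of medians runs from CDK1 (15.3) down to CDKN1B (4.37).

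**Figure D2:**
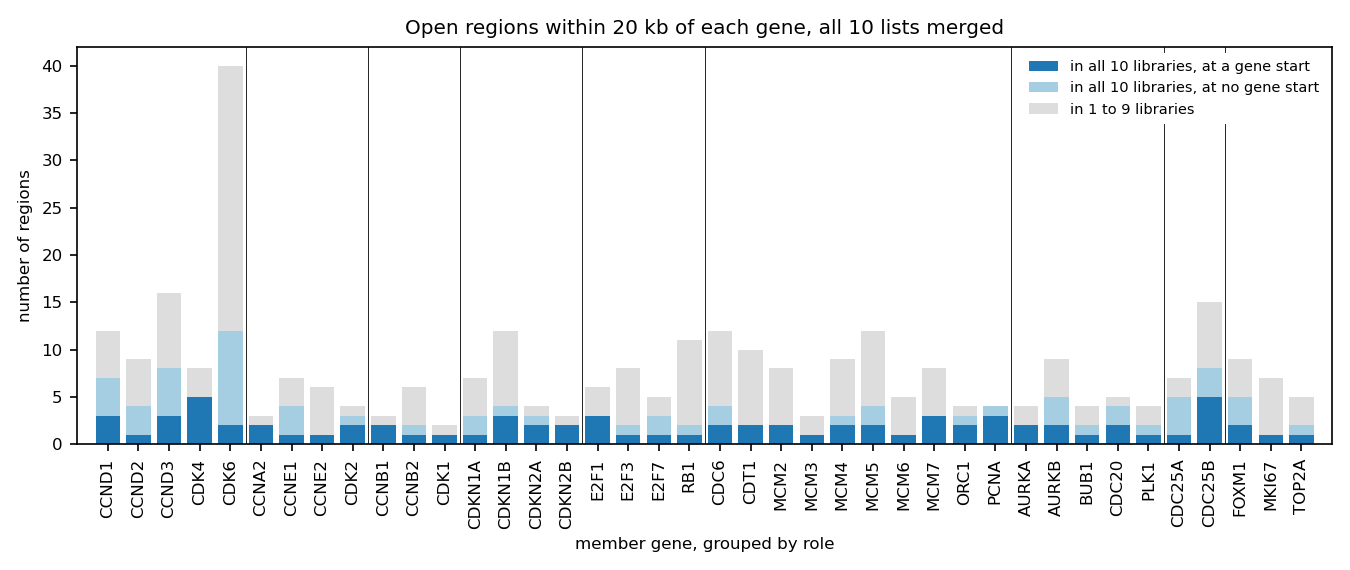
Bars give the number of open regions within 20 kb of each member over the 10 merged lists, with members grouped by role between the vertical lines. Dark blue marks regions called in all 10 libraries at the start of any protein-coding gene, light blue those called in all 10 elsewhere, and grey those called in 1 to 9 libraries. CDK6 stands highest with 40 regions, of which 12 were called in all 10 libraries.

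Regions of these genes were also called more steadily than regions in general. In the degron line 170 of 257 member regions (66.1%) were called in all 6 libraries, against 51.6% of all regions and 54% of those within 20 kb of any protein-coding gene. At starts, 46 of 53 member regions (86.8%) were called in all 6, against 83.2% of all start regions. Away from any protein-coding gene start the share was 87 of 160 (54.4%), against 46.9%. In KO and WT cells 144 of 316 member regions (45.6%) were called in all 4 libraries, against 31.9% of all regions. Of those within 20 kb of any protein-coding gene, 34.3% were. At starts the share was 45 of 63 (71.4%), against 65.1% of all start regions. Away from any protein-coding gene start it was 71 of 206 (34.5%), against 27.7%. For the second list of 80 cell cycle genes the shares were 60% in the degron line and 42.8% in KO and WT cells. Per library, AID_wash called 184 and 208 of the 257 regions, AID_aux 220 and 203, and AID_ctrl 215 and 205, and KO called 247 and 253 of the 316 regions against 212 and 172 in WT. A region was shared by windows of several members in 2 cases in the degron line, and in 3 cases in KO and WT.

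The effect of 12 h of auxin was read from regions called in both libraries of one group and in neither of the other. With AID_aux against AID_ctrl, 5 of 257 member regions (1.95%) were lost, where 2.27% of all regions were lost. Another 5 (1.95%) were gained, where 2.47% of all regions were gained, and 181 were retained. The members' shares lay close to, and below, both backgrounds. Away from any protein-coding gene start the members lost 5 of 160 regions and gained 5 (3.12% each), where 2.51% of all such regions were lost and 2.73% gained. With 2 libraries against 2 there are only 3 ways to split them, so no test was made of these or the following counts. None of the 10 regions lay at the start of any protein-coding gene, and none ranked by −log10 p within the first 50% of both lists that called it, a class in which 190 of all regions were lost (0.158%) and 10 gained (0.00830%). For the second list of 80 cell cycle genes, 8 regions were lost and 11 gained of 465. Leaving out 1 library loosens the rule. The members' losses then numbered 11 without AID_aux replicate 1 (4.28%, where 5.88% of all regions were lost), 5 without AID_aux replicate 2 (1.95%, where 3.29% were), 9 without AID_ctrl replicate 1 (3.50%, where 5.94% were) and 17 without AID_ctrl replicate 2 (6.61%, where 6.58% were). Their gains numbered 7 (2.72%, where 5.87% of all regions were gained), 15 (5.84%, where 9.62% were), 12 (4.67%, where 5.37% were) and 11 (4.28%, where 4.67% were) in the same order.

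The D cyclin group held 4 of the 5 lost regions and 3 of the 5 gained, and it held 70 of the 257 regions. In CCND3, a region inside the gene (chr6:42038836-42039165), 9523 bp from a start, was called in every library of the series except the 2 of AID_aux. Its enrichment was 4.2- and 4.1-fold in AID_wash and 5.36- and 4.59-fold in AID_ctrl. A second CCND3 region (chr6:42028352-42028983) had 5.45-fold in AID_wash replicate 2 and 5.48- and 4.88-fold in AID_ctrl, and WT replicate 1 called it too. In CDK6, a region 42631 bp from a start (chr7:92791056-92791328) had 6.21- and 4.88-fold in AID_ctrl, and no peak in AID_wash or AID_aux. Both KO libraries and neither WT library called that interval, but the wider region that it joins when all 10 libraries are merged (chr7:92790426-92791469) was called in WT replicate 2 too. The last 2 lost regions lay outside their genes, 10822 bp from CCND1 (chr11:69630153-69630334; 5.12- and 4.48-fold in AID_ctrl) and 8597 bp from CDC25B, a phosphatase that activates CDK1 (chr20:3777937-3778354; 3.29- and 3.27-fold in AID_ctrl).

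Among the gained regions, the one with the highest enrichment lay inside AURKA, which encodes the Aurora A kinase of spindle assembly (chr20:56373951-56374251), with 4.71- and 4.81-fold in AID_aux. It was also called in both KO libraries and WT replicate 1. CDK6 gained a region far inside its body (chr7:92608738-92609157) with 4.37- and 3.93-fold in AID_aux, and CCND2 gained one 1954 bp outside its lower-numbered end (chr12:4271332-4271808) with 4.28- and 4.06-fold in AID_aux and 3.34-fold in AID_wash replicate 2. CCND1 gained a region inside the gene (chr11:69645774-69645937) with 1.89- and 2.13-fold in AID_aux. With all 10 libraries merged, it lies in a wider region (chr11:69645189-69646144). Both AID_wash and both AID_aux libraries, AID_ctrl replicate 2, KO replicate 1 and WT replicate 1 called that wider region. The fifth lay 710 bp outside MCM7, a helicase subunit, in the body of COPS6 (chr7:100091854-100092018), with 2.22- and 2.27-fold in AID_aux and 2.21-fold in AID_wash replicate 2. The wider region that it joins in the merge of all 10 (chr7:100089897-100092175) was called in every library but WT replicate 2. The peaks behind the auxin-lost regions ranked between the top 62.6% and 91.4% of their lists by −log10 p, and those behind the gained regions between the top 79.9% and 99.9%. These were peaks of the weaker part of each list.

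After washout, losses outnumbered gains at the members and among all regions. With AID_wash against AID_aux, 13 member regions (5.06%) were lost, where 3.24% of all regions were lost, and 1 (0.389%) was gained, where 1.13% of all regions were gained. The 13 lost regions lay at 9 genes, with 4 of them at RB1 and E2F3, 2 each at CDK6 and AURKA, and 9 inside a member's body. AID_wash replicate 1 was the shortest degron list. With each degron list cut to that length, 5 member regions were lost (2.18%, where 2.05% of all were) and 1 was gained (0.437%, where 2.19% were), so the lost share was then near the background and losses no longer outnumbered gains among all regions. With AID_wash against AID_ctrl, 8 member regions (3.11%) were lost, where 2.41% of all regions were lost, and 0 were gained, where 0.619% of all were. With equal list lengths 1 member region was lost (0.437%, where 1.5% of all were) and 0 were gained, where 1.38% were. Away from any protein-coding gene start, the members lost 8.12% of 160 regions against AID_aux, where 3.58% of all such regions were lost, and gained 0.625%, where 1.24% were gained. Against AID_ctrl they lost 5% of those regions, where 2.66% of all such regions were lost, and gained 0, where 0.668% were gained. When 1 library was left out, losses against AID_aux numbered 14 without AID_wash replicate 1 (5.45%, where 4.36% of all regions were lost), 25 without AID_wash replicate 2 (9.73%, where 10.2% were), 15 without AID_aux replicate 1 (5.84%, where 7.09% were) and 24 without AID_aux replicate 2 (9.34%, where 11.5% were). The members' lost share was thus above the background in 1 of these 4 cases and below it in 3. Gains numbered 11 (4.28%, where 6.19% of all were gained), 6 (2.33%, where 2.44% were), 5 (1.95%, where 3.32% were) and 1 (0.389%, where 1.72% were) in the same order. Losses against AID_ctrl numbered 9 without AID_wash replicate 1 (3.50%, where 3.45% of all were lost), 17 without AID_wash replicate 2 (6.61%, where 8.76% were), 16 without AID_ctrl replicate 1 (6.23%, where 7.06% were) and 23 without AID_ctrl replicate 2 (8.95%, where 7.89% were). Gains against AID_ctrl numbered 12 (4.67%, where 6.17% were gained), 5 (1.95%, where 1.96% were), 2 (0.778%, where 2.06% were) and 2 (0.778%, where 1.64% were) in that order. The second list of 80 genes lost 9 of 465 regions against AID_aux (1.94%) and gained 2 (0.430%), and it lost 7 against AID_ctrl (1.51%) and gained 4 (0.860%). Its lost shares lay below the 3.24% and 2.41% of all regions, while those of the members lay above. The comparisons of AID_wash with AID_aux, AID_wash with AID_ctrl and AID_aux with AID_ctrl share libraries, so their counts are not separate evidence.

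Of the regions lost under auxin, the CCND3 region 9523 bp from a start was called again in both AID_wash libraries, and the other 4 were not called in both. Of the 5 gained regions, as merged over the degron lists, those inside CDK6, CCND1 and AURKA were called in neither AID_wash library, and those at CCND2 and MCM7 in 1. Both AID_wash libraries called the wider regions that hold the CCND1 and MCM7 gains. E2F3, which encodes an activating E2F factor, had 2 regions that both AID_aux and both AID_ctrl libraries called and neither AID_wash library did. One lay inside the gene (chr6:20455265-20456000), with 3.58- and 5.33-fold in AID_aux and 4.45- and 3.99-fold in AID_ctrl. The other lay 14653 bp beyond it (chr6:20508367-20509093), with 4.71- and 6.47-fold in AID_aux and 4.67- and 4.48-fold in AID_ctrl. In RB1, adjacent regions inside the gene and within LPAR6, an overlapping gene (chr13:48400152-48400682 and chr13:48400937-48401238), had 5.38- and 4.37-fold and 3.70- and 4.81-fold in AID_aux, no peak in AID_wash, and a peak in 1 AID_ctrl library each. Altogether 21 regions at 13 members were lost or gained in at least 1 degron comparison, and the calling peaks ranked between the top 53.8% and 99.9% of their lists.

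**Figure D3:**
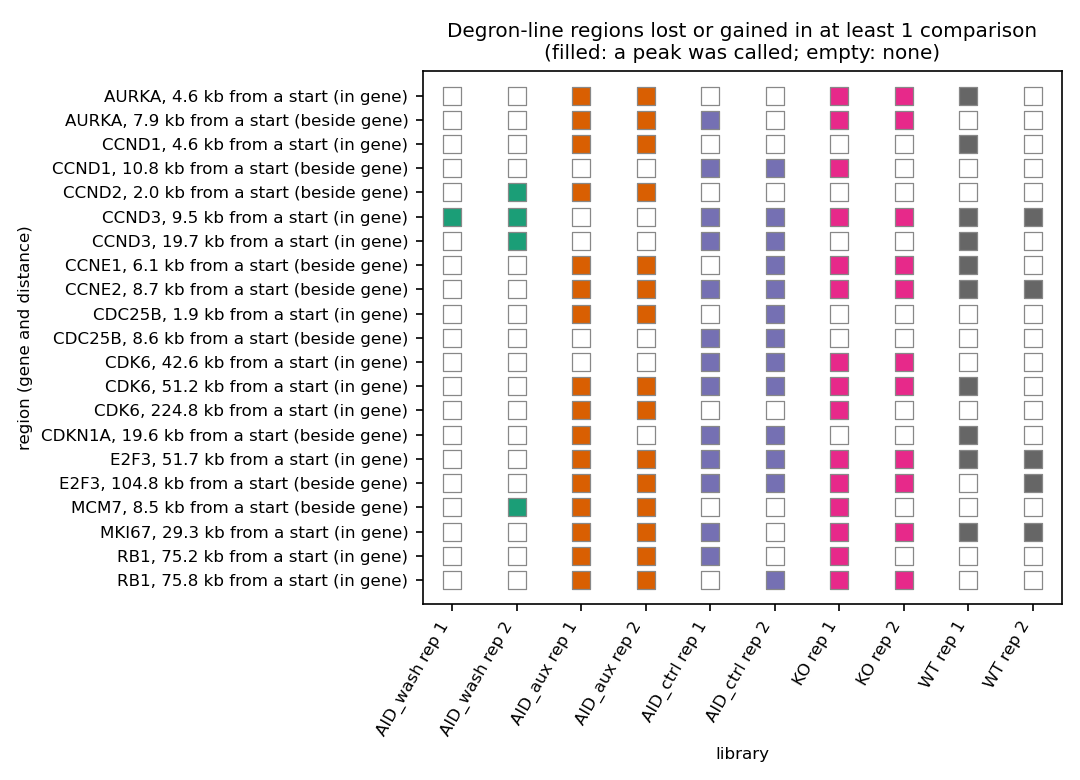
Each row is a degron-line region lost or gained in at least 1 of the 3 degron comparisons, named by its member gene and its distance from a start, and each column is a library. A filled square means that the library called a peak overlapping the region. The CCND3 region 9.5 kb from a start is empty only in AID_aux, and 17 of the 21 rows are empty in both AID_wash columns.

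In the knockout, gains far outnumbered losses, at the members and everywhere. With KO against WT, 30 of 316 member regions (9.49%) were gained, where 19.5% of all regions were gained, and 2 (0.633%) were lost, where 1.24% of all were lost. The KO lists held more windows than the WT lists, 130807 and 116626 against 93104 and 66078, and the part of list length in these gains was not tested. Of 63 member regions at a member start 2 were gained (3.17%), where 6.57% of the 17926 regions at any protein-coding gene start were gained. Away from any protein-coding gene start the members gained 23 of 206 (11.2%), where 21.2% of all such regions were gained. Losses there were 1 of 206, or 0.485%, where 1.17% of all such regions were lost. The second list of 80 genes gained 84 of 552 regions (15.2%) and lost 3. Without WT replicate 1 the members gained 73 regions (23.1%, where 35.3% of all were gained), and without WT replicate 2 they gained 33 (10.4%, where 20.2% were). Without KO replicates 1 and 2 the gains numbered 57 and 54, below the share of all regions in both cases (18% where 24% were, and 17.1% where 31.5% were). Losses were 3 without KO replicate 1 (0.949%, where 1.68% of all were lost), 4 without KO replicate 2 (1.27%, where 1.44% were), 22 without WT replicate 1 (6.96%, where 6.96% were) and 16 without WT replicate 2 (5.06%, where 7.16% were). The 30 gained regions lay at 23 members, 16 of the regions inside a member's body.

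RB1, the retinoblastoma gene, gained the most regions in KO, 3 of its 12. One spans the pair of regions inside RB1 described above (chr13:48400181-48401327), which AID_aux and AID_ctrl also called, with 5.38- and 4.81-fold in AID_aux and 4.75- and 5.70-fold in AID_ctrl. The other 2 (chr13:48493537-48494069 and chr13:48500581-48501121) lay beyond RB1 in the body of RCBTB2 and were called in no degron library. MCM2 gained 2 regions inside the gene (chr3:127615010-127615543 and chr3:127615717-127616394), of which the second was also called in AID_aux replicate 1. MCM5 also gained 2 regions inside the gene (chr22:35417853-35418500 and chr22:35436898-35437521). AID_wash replicate 2 and AID_ctrl replicate 1 also called the first, and AID_aux replicate 2 the second. CDC6, a loader of the MCM helicase, gained 1 region inside the gene (chr17:40290550-40291071) and 1 beyond it (chr17:40307495-40308103). AID_wash replicate 1 also called the one beyond it, and no degron library called the other. CCNB2 gained a region 680 bp from its start (chr15:59105826-59106325) and another 15386 bp beyond its end in MYO1E (chr15:59140431-59140963). Replicate 2 of AID_wash, of AID_aux and of AID_ctrl also called the region near the start, and no degron library called the one in MYO1E. CDK6 gained 2 regions inside the gene, and the one 81258 bp from a start (chr7:92752143-92752701) was called in 5 of 6 degron libraries, with 7.05-fold in AID_wash replicate 2, 8.74- and 10.1-fold in AID_aux and 4.02- and 5.70-fold in AID_ctrl. CDK1 gained its one region away from a start, 9036 bp before the gene (chr10:60768795-60769295), which all 6 degron libraries called, with 5.47- and 4.17-fold in AID_wash, 7.06- and 6.12-fold in AID_aux and 9.87- and 6.92-fold in AID_ctrl. CCND2 gained a region inside the gene (chr12:4287759-4288267) that no degron library called. Of the 30 gained regions, 22 were called in some degron library, 6 of them in all 6, and 8 in none.

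Regions lost in KO were rare. One lay 858 bp from the outer PCNA start, at the start of CDS2 (chr20:5127480-5127983). KO still called a window within 1000 bp of that start, and with all 10 libraries merged both windows lie in 1 region (chr20:5126082-5127983) called in every library. The other lay 18032 bp from E2F1 in the body of PXMP4 (chr20:33704417-33704976) and was called in no degron library. At E2F1 itself, which encodes the first E2F factor described, the start was called in all 10 libraries.

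**Figure D4:**
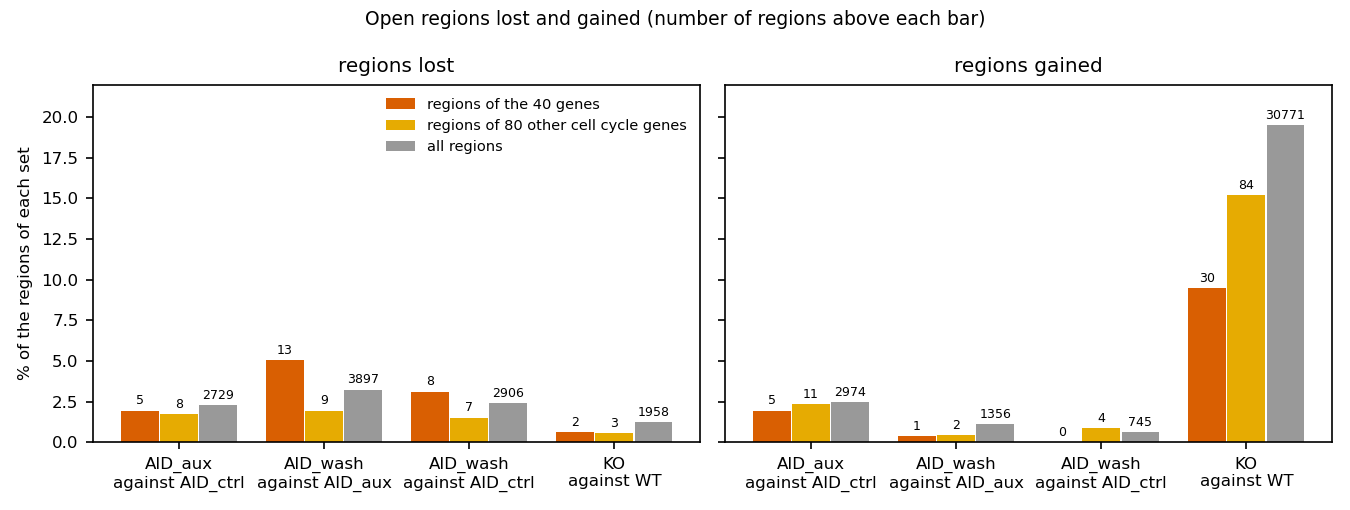
Bars give the percentage of regions lost (left panel) and gained (right panel) in 4 comparisons, for the 40 genes (orange), the 80 other cell cycle genes (yellow) and all regions (grey), with the number of regions above each bar. The members lie near the background in the degron line for AID_aux against AID_ctrl (5 lost and 5 gained of 257), and KO against WT shows 9.49% gained where 19.5% of all regions were.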

How the data were processed

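Open chromatin was measured by ATAC-seq in 10 DLD-1 libraries, 2 in each of 5 groups. Per the labels' protocols, Omni-ATAC was done on 50000 cells with 150-nt paired reads. Per the submitters' processing notes, coordinates are in hg38 and the tools were MACS2 2.1.1, Bowtie2 2.4.2, Trim Galore 0.6.10 and Picard, whose settings are not given here. Peaks were deposited separately for each library. The 6 deposited degron lists give per summit a score (10 times the −log10 p, held at 1000), a fold enrichment ratio over background, and 2 values on a −log10 scale, for the p-value and for the q-value, of which the first was never below 5. Summit offsets in these deposited lists gave summit positions. The 4 deposited KO and WT lists hold coordinates alone.

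For chromosomes 1 to 22 and X, overlapping peaks were joined into regions over the 6 degron lists, the 4 KO and WT lists, and all 10. A library called a region with an overlap of 1 bp. Regions were lost when both libraries of the comparison group and neither of the other called them, gained when the pattern was the other way round, and retained when all 4 libraries called them. Gene bodies, promoter sequences and starts came from RefSeq (GRCh38.p14), in which all 40 symbols matched. Without an exon annotation, exons and introns were not told apart. The fold ratio is relative to the background of its own list. Values of the 6 degron lists were set side by side and summarised by medians and ranges, and they show no change between lists. Because 2 libraries against 2 allow 3 splits, no p-value was computed. The counting was checked on simulated lists. Values per library were given for members with a region lost or gained under auxin, the 5 with most regions gained or lost in KO (ties by symbol), the 3 highest and 3 lowest start enrichments, and members without a start peak in some library, and further genes were named after their values were seen. The members, the second gene list and the motifs were chosen with earlier results of these data known. Python 3.11.15, numpy 2.4.6, pandas 2.3.3 and matplotlib 3.10.9 were used.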

Additional observations from a re-analysis of the deposited data

How the results depend on the processing

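The lists hold no counts, so the depth behind each call is unknown, a region just under a list's threshold counts as uncalled, and longer lists call more regions. No paired analysis was possible because the results come from calls and no test. Of 87 values recomputed under an alternative, 32 stayed within 1.5 times and 55 did not, and the cause was not tested. Counts of members with a start peak, and of regions called in every library, stayed within 1.5 times throughout. Shares of all regions under the same setting stand beside the members' shares. With gene bodies alone, 3 member regions were lost (2.42%, all 2.27%) and 3 gained (2.42%, all 2.47%) in AID_aux against AID_ctrl, 3 lost (2.42%, all 2.41%) in AID_wash against AID_ctrl, and 0 lost (all 1.24%) and 16 gained (10.7%, all 19.5%) in KO against WT. Within 100 kb, 9 were lost (1.25%, all 2.27%) and 11 gained (1.53%, all 2.47%) in AID_aux against AID_ctrl, 28 (3.89%, all 3.24%) and 3 (0.417%, all 1.13%) in AID_wash against AID_aux, 17 (2.36%, all 2.41%) and 2 (0.278%, all 0.619%) in AID_wash against AID_ctrl, and 8 (0.890%, all 1.24%) and 141 (15.7%, all 19.5%) in KO against WT. With fixed windows of 500 bp, the same order gave 10 (1.40%, all 2.73%) and 12 (1.69%, all 2.31%), 27 (3.79%, all 3.30%) and 6 (0.843%, all 1.38%), 19 (2.67%, all 2.96%) and 3 (0.421%, all 0.760%), and 10 (1.5%, all 2.08%) and 63 (9.45%, all 18.7%). When a call needed 50% of the region to be covered, 8 were lost (3.11%, all 3.73%) in AID_aux against AID_ctrl, and 3 (1.17%, all 1.67%) and 2 (0.778%, all 0.905%) gained in AID_wash against AID_aux and against AID_ctrl. In the top 50% of both calling lists all counts in the degron line were 0. With equal list lengths, 5 were lost in AID_wash against AID_aux (2.18%, all 2.05%) and 1 in AID_wash against AID_ctrl (0.437%, all 1.5%). Leaving out 1 library gave 5 to 17 lost and 7 to 15 gained regions in AID_aux against AID_ctrl, 14 to 25 and 1 to 11 in AID_wash against AID_aux, 9 to 23 and 2 to 12 in AID_wash against AID_ctrl, and 3 to 22 and 33 to 73 in KO against WT. Leaving out a replicate number gave 39 members with a start peak in the degron line in both cases, and 38 and 39 in KO and WT.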
